A study of Mus musculus with 6 samples.

Results

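The 8 genes described here, Krt8, Krt18, Cldn2, Cldn1, Mfrp, Tmem72, Calml4 and Prr32, are genes of epithelial structure and genes of less known role that belong to the choroid plexus or to epithelia like it. They were picked by symbol from 22584 genes in RNA-sequencing data of mouse brain, and each symbol stood on 1 row. The levels of these genes in the 2 extraction methods helped to choose them, so their differences between the methods are given as a description, without a test. RNA was extracted from brain tissue of wild-type (WT) mice either with the AllPrep column kit, which recovers DNA, RNA and protein from the same lysate (3 libraries), or with TRIzol, in which tissue is lysed in phenol and the RNA is recovered by isopropanol precipitation (3 libraries, labelled as control). The labels give no age, sex or strain, and they name neither the brain regions in a sample nor the number of mice, so spreads and p-values measure the differences between these libraries, which may be technical.

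The choroid plexus is a folded epithelium in the brain ventricles that secretes cerebrospinal fluid. Its cells are joined by tight junctions, belts of claudins and other membrane proteins that close the gap between neighbouring cells, and claudins differ in whether they seal that gap or form small pores through it. Keratins 8 and 18, from Krt8 and Krt18, are the filament pair of simple epithelia; a filament needs a type II keratin such as keratin 8 and a type I keratin such as keratin 18. Most other brain cells use other intermediate filaments, such as glial fibrillary acidic protein in astrocytes and neurofilaments in neurons.

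All 8 genes have an entry among the RefSeq promoter windows (build GRCm38.p6), which run from 250 bases before the annotated gene start to 50 bases after it. The 250 bases before the start are shown for the keratin pair, the claudin pair and Mfrp, because the claudins differed in how their counts ran across the libraries, and because Mfrp alone of the 8 windows held an Otx-type site. They are written 5′ to 3′ in the direction of the gene, and capitals mark a TATA box (TATAAA, gene strand) or an Otx-type site (TAATCC, either strand, so also read as GGATTA).
Krt8, chr15:102004343-102004592, minus strand: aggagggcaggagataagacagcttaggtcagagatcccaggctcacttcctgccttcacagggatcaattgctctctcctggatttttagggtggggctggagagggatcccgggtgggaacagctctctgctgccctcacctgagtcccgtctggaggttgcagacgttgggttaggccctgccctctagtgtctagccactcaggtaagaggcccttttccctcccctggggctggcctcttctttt
Krt18, chr15:102027966-102028215, plus strand: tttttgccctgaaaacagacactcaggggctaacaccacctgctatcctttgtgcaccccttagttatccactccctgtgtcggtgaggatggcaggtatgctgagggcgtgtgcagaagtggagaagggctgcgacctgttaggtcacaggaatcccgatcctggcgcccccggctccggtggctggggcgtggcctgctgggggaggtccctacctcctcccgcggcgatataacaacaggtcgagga
Cldn2, chrX:139800558-139800807, plus strand: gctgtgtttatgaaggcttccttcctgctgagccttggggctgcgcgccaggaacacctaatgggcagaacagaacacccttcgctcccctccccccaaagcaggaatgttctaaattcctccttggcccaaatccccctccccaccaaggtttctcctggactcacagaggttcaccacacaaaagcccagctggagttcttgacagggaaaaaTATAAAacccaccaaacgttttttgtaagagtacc
Cldn1, chr16:26371840-26372089, minus strand: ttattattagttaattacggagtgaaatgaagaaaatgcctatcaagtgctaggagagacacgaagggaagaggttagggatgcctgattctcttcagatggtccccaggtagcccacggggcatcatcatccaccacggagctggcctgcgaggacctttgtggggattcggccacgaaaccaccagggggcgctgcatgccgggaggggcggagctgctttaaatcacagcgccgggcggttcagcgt
Mfrp, chr9:44101520-44101769, plus strand: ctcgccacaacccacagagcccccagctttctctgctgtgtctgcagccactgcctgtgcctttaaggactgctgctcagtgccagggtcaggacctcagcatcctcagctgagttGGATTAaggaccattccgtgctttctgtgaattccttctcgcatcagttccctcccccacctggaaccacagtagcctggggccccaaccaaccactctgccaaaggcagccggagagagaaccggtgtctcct

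Cldn2 held TATAAA 35 bases before its start, while Krt8 held the same letters across its start, beginning 1 base before it, so that they lie almost wholly outside the stretch shown. TATAAA stood in 2 of the 8 windows and in 8.32% of all 32851 RefSeq windows. Mfrp held the Otx-type letters 134 bases before its start; they were in 1 of the 8 windows and in 7.06% of all windows. A Fox-type site (TGTTTAC, either strand) was in 0 of the 8 and in 3.65% of all. The 2 claudins differed in base composition, since the stretch shown holds 14 CG pairs in Cldn1 and 4 in Cldn2, against a median of 6.0 over all windows. The letters describe these windows and say nothing of which factors bind there. The motifs were chosen after the sequences had been seen.

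Total counts ran from 36395330 to 50937858 per library. Markers of brain cells were present in all 6 libraries, with Snap25 (neurons) at 2123 to 3564 CPM (the count scaled to a library total of 1000000) and Gfap (astrocytes) at 119 to 236 CPM. Ttr (ENSMUSG00000061808), which encodes transthyretin and marks choroid plexus epithelium, had 661, 562 and 1121 CPM in AllPrep replicates 1 to 3, against 12.3, 17.1 and 12.8 CPM in TRIzol replicates 1 to 3. The 8 genes themselves were rare, with 0 to 721 counts in a library and 3 of the 48 values at 0. Of the 45 values above 0, 34 were even numbers, and across all genes 64.2% to 70.9% of counts from 1 to 20 were even in each library; if both reads of a pair were counted, the number of independent fragments is lower than the counts below.

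Both keratin genes had 0 to 22 counts in the TRIzol libraries, and higher but still low counts in all 3 AllPrep libraries. Krt8 (ENSMUSG00000049382, chromosome 15) had 37, 34 and 80 counts in AllPrep replicates 1 to 3, against 6, 0 and 2 counts in TRIzol replicates 1 to 3. Every AllPrep library stood above every TRIzol library. The mean was 1.10 ± 0.410 CPM in AllPrep and 0.0698 ± 0.0853 CPM in TRIzol (SD, n = 3 each), 15.7 times as high in AllPrep. Krt18 (ENSMUSG00000023043), its neighbour on the same chromosome, had 72, 43 and 152 counts in AllPrep, against 0, 22 and 6 counts in TRIzol. The groups did not overlap here either, but the lowest AllPrep library was only 1.95 times the highest TRIzol library. Krt18 averaged 1.91 ± 0.964 CPM in AllPrep and 0.235 ± 0.299 CPM in TRIzol (SD, n = 3 each), an 8.14-fold difference. A count of 0 allows up to 3 counts, or 0.0779 CPM for Krt8 in TRIzol replicate 2 and 0.0824 CPM for Krt18 in TRIzol replicate 1 (counting error only). This limit takes each count as independent, and it is higher if both reads of a pair were counted. The TRIzol library that had most Krt8 had no Krt18, and the one that had most Krt18 had no Krt8, so the pair could not be followed together at this depth. Per length of the longest coding transcript, the level of Krt18 was 2.65, 1.72 and 2.59 times that of Krt8 in AllPrep replicates 1 to 3. Whether counts scale with length in these libraries was not tested. The folds moved with single TRIzol libraries: Krt8 was 49.4-fold higher without TRIzol replicate 1 and 10.5-fold higher without TRIzol replicate 2, and Krt18 was 28.7-fold higher without TRIzol replicate 2 and 5.43-fold higher without TRIzol replicate 1. RefSeq also lists a processed copy, Krt8-ps, so that reads of Krt8 may have been split, and its counts are uncertain to that extent. In bulk tissue, fewer cells of a type, less RNA per cell and a lower recovery of that RNA by the extraction cannot be told apart. This holds here and for every gene below.

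The 2 claudins, which both sit in epithelial tight junctions, behaved differently. Cldn2 (ENSMUSG00000047230, chromosome X), a claudin that forms pores for cations and water, had 162, 126 and 361 counts in AllPrep, against 2, 24 and 16 counts in TRIzol. All AllPrep libraries lay above all TRIzol libraries. It averaged 4.68 ± 2.10 CPM in AllPrep and 0.344 ± 0.284 CPM in TRIzol (SD, n = 3 each), a 13.6-fold difference that was 22.8-fold without TRIzol replicate 2. Cldn1 (ENSMUSG00000022512, chromosome 16), a claudin that seals the junction, had 160, 118 and 370 counts in AllPrep, against 86, 92 and 386 counts in TRIzol. Its groups overlapped, because TRIzol replicate 3 held more Cldn1 than any other library. The means were 4.65 ± 2.28 CPM in AllPrep and 4.44 ± 3.58 CPM in TRIzol (SD, n = 3 each), a ratio of 1.05 that is far inside the spread between replicates. Without TRIzol replicate 3 the ratio was 1.96, and without AllPrep replicate 3 it was 0.754.

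In the AllPrep libraries Cldn1 and Cldn2 had almost the same counts, with 0.988, 0.936 and 1.02 counts of Cldn1 for each count of Cldn2 in replicates 1 to 3. In the TRIzol libraries there were 43.0, 3.83 and 24.1 counts of Cldn1 for each count of Cldn2. The denominators in TRIzol are 2, 24 and 16 counts, so the first of these ratios in particular is loose. Cldn1 was thus the member whose level did not follow the other 7 across the libraries. Its Pearson r with the mean of the other 7 genes on the log2(CPM + 0.5) scale was 0.27 over the 6 libraries, against 0.94 to 0.99 for each of the others. These r values describe 6 libraries that fall into 2 groups by method, and the groups were used to choose the genes.

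**Figure D1:**
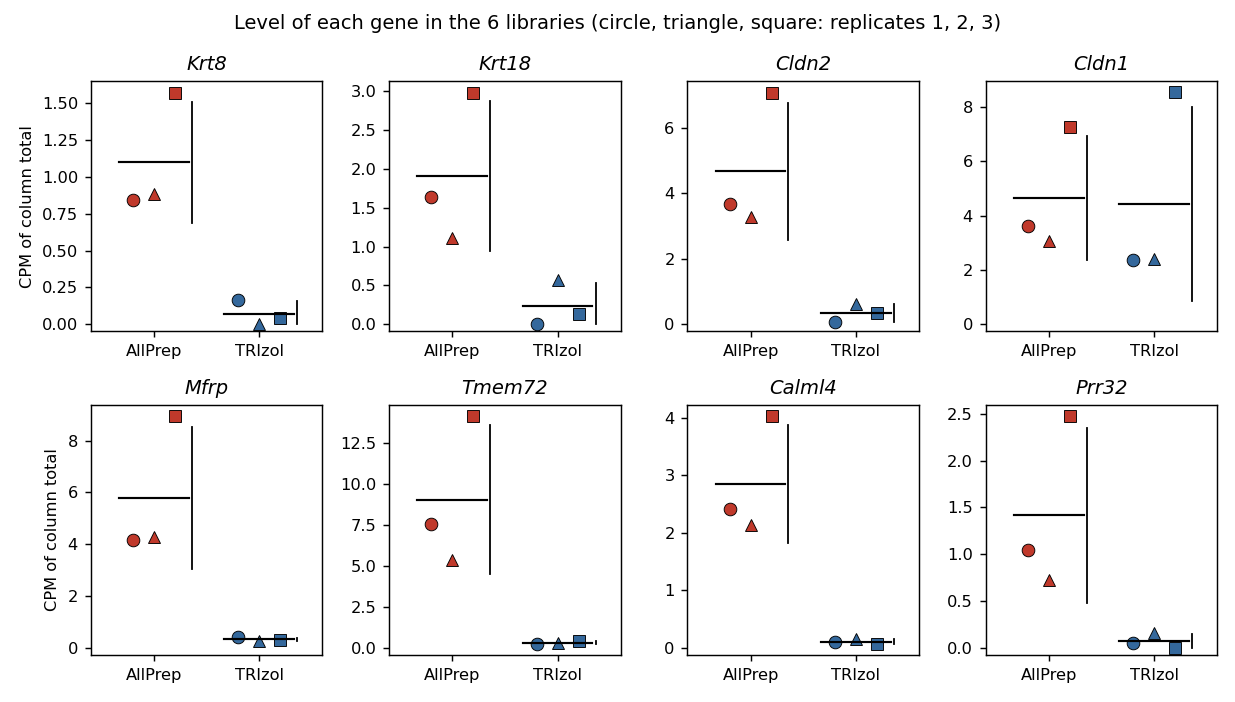
Level of each of the 8 genes in CPM (vertical axes, linear, a scale for each gene) in the AllPrep and TRIzol libraries. Points are single libraries, horizontal bars are means and vertical bars are 1 SD over 3 libraries (cut at 0). In 7 panels the 3 AllPrep points lie above the 3 TRIzol points, and the Cldn1 panel shows TRIzol replicate 3 at 8.58 CPM, above AllPrep replicate 3 at 7.26 CPM.

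The other 4 genes code for proteins less often named in connection with the choroid plexus. Mfrp (ENSMUSG00000034739, chromosome 9), a membrane protein with a frizzled-like domain that is best known from the retinal pigment epithelium and whose loss causes retinal degeneration in the rd6 mouse, had 183, 165 and 456 counts in AllPrep, against 15, 11 and 13 counts in TRIzol. The TRIzol values were close to each other and far below the AllPrep values. Mfrp averaged 5.80 ± 2.73 CPM in AllPrep and 0.329 ± 0.0722 CPM in TRIzol (SD, n = 3 each), 17.6 times as high in AllPrep. In the reference annotation Mfrp overlaps C1qtnf5. That symbol was not among the 22584 genes kept, so no counts of its own can be set beside those of Mfrp. How the authors' counting divided reads between the 2 genes is not given in the sources used here. Tmem72 (ENSMUSG00000048108, chromosome 6), which encodes a membrane protein of little known function, was the most counted of the 8 genes in AllPrep, with 334, 208 and 721 counts in AllPrep, against 8, 12 and 18 counts in TRIzol. No library of one method came near the other method's range. It averaged 9.05 ± 4.56 CPM in AllPrep and 0.310 ± 0.0901 CPM in TRIzol (SD, n = 3 each), the largest fold of the 8 genes at 29.1. Without each library in turn its fold ran from 20.9 to 35.0.

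Calml4 (ENSMUSG00000032246, chromosome 9), a calmodulin-like protein that in the intestine acts as a light chain of a myosin in the complex that links the tips of microvilli, had 106, 82 and 205 counts in AllPrep, against 4, 6 and 3 counts in TRIzol. Its lowest AllPrep library was 13.7 times its highest TRIzol library, the widest gap among the 8 genes. The mean was 2.85 ± 1.02 CPM in AllPrep and 0.111 ± 0.0445 CPM in TRIzol (SD, n = 3 each), 25.8 times as high in AllPrep. Prr32 (ENSMUSG00000037086, chromosome X), a proline-rich protein, had 46, 28 and 126 counts in AllPrep, against 2, 6 and 0 counts in TRIzol. The groups did not overlap. Prr32 averaged 1.42 ± 0.930 CPM in AllPrep and 0.0702 ± 0.0790 CPM in TRIzol (SD, n = 3 each), a 20.2-fold difference. It rested on few counts, and the fold was 51.5 without TRIzol replicate 2, 13.4 without TRIzol replicate 3 and 12.6 without AllPrep replicate 3.

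In all, 7 of the 8 genes had every AllPrep library above every TRIzol library. The same held for 13.4% of the 16325 genes tested across the transcriptome, and 20.6% had every AllPrep library below every TRIzol library. Since the genes were chosen from this contrast, nothing is read from the count. The median log2 ratio of mean CPM over the 8 genes was 4.06. Taken as the difference between the group means of log2(CPM + 0.5) it was 2.07. That measure both adds 0.5 CPM and averages after taking logs, and most TRIzol values of the 7 genes other than Cldn1 lie below 0.5 CPM.

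**Figure D2:**
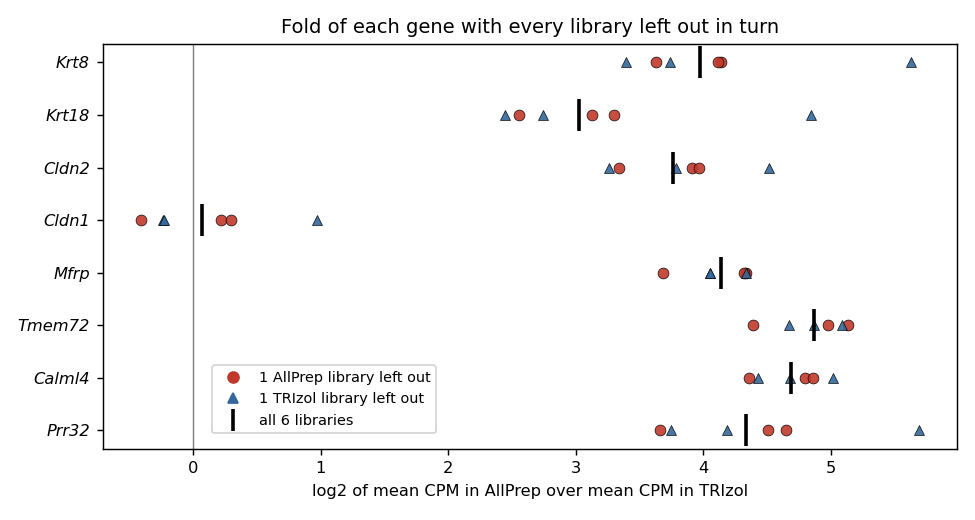
Log2 of the mean CPM in AllPrep over the mean CPM in TRIzol (horizontal axis) for each of the 8 genes, with all 6 libraries (bars) and with 1 AllPrep library (circles) or 1 TRIzol library (triangles) left out. Of the 8 genes, 7 stay above 2 throughout, while Cldn1 lies on both sides of 0, from -0.41 to 0.97.

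Among the AllPrep libraries, replicate 3 was the highest for all 8 genes. Its level was between 1.77 (Calml4) and 2.79 (Prr32) times the mean of AllPrep replicates 1 and 2. Ttr was also highest in that library. Set against Ttr, some of the genes had narrower ranges within AllPrep: per 100 Ttr counts there were 1.15, 0.960 and 1.26 counts of Tmem72, 0.364, 0.379 and 0.359 counts of Calml4, and 0.557, 0.582 and 0.632 counts of Cldn2 in AllPrep replicates 1 to 3. Krt18 had 0.248, 0.199 and 0.266 counts per 100 Ttr counts. Prr32 varied more, at 0.158, 0.129 and 0.221 counts per 100 Ttr counts. In TRIzol replicates 1 to 3 the same ratios were 1.79, 1.82 and 3.12 for Tmem72, 0.893, 0.911 and 0.521 for Calml4, and 0.446, 3.64 and 2.78 for Cldn2. Tmem72 and Calml4 were thus higher relative to Ttr in all 3 TRIzol libraries, although their own levels were lower there. Mfrp was too, with 3.35, 1.67 and 2.26 counts per 100 Ttr counts in TRIzol, against 0.629, 0.762 and 0.798 in AllPrep. Ttr itself was 55.5 times as high in AllPrep, a larger fold than that of any of the 8 genes. Cldn1 had 0.550, 0.545 and 0.648 counts per 100 Ttr counts in AllPrep, against 19.2, 14.0 and 67.0 in TRIzol.

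The 7 genes other than Cldn1 also stood in roughly similar proportions to one another in the 3 AllPrep libraries, with Prr32 the most variable. Their summed level was 21.4, 17.8 and 41.2 CPM in AllPrep replicates 1 to 3, against 1.02, 2.10 and 1.29 CPM in TRIzol replicates 1 to 3. Within AllPrep, Tmem72 made up 30.3% to 35.5% of the 7 genes' counts, Mfrp 19.5% to 24.1%, Cldn2 17.2% to 18.4% and Krt8 3.81% to 4.96%. In TRIzol, where the 7 genes summed to 37, 81 and 58 counts, the shares scattered more, with Mfrp at 13.6% to 40.5% and Krt18 at 0 to 27.2%. Few counts lie behind these TRIzol shares.

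**Figure D3:**
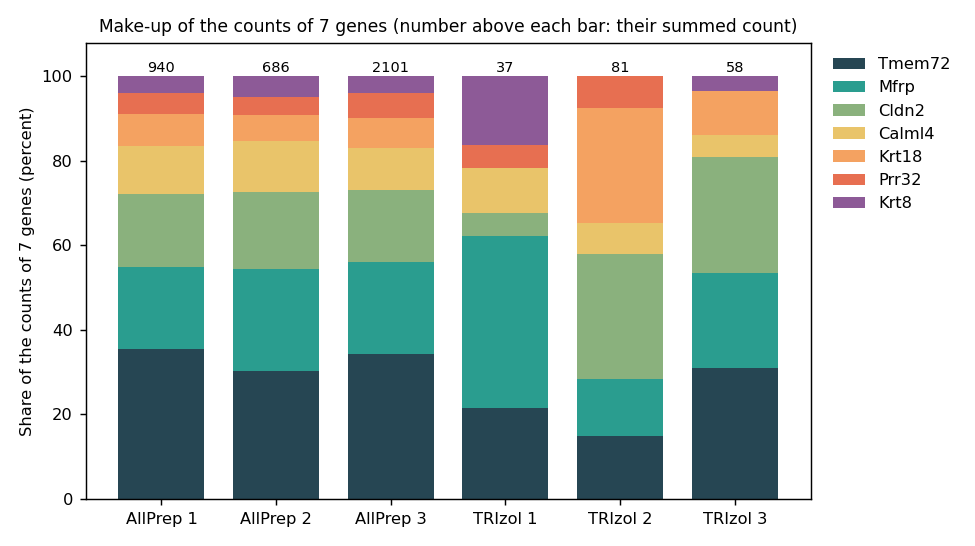
Share of each gene in the summed counts of the 7 genes other than Cldn1 (vertical axis, percent) in every AllPrep and TRIzol library, with the summed count above each bar. The 3 AllPrep bars are alike, with Tmem72 at 30.3% to 35.5%, while the TRIzol bars, which rest on 37 to 81 counts, differ from each other.

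Per length, Calml4 had the highest level of the 8 genes in AllPrep, at 3.30 ± 1.18 CPM per kilobase of its longest coding transcript (SD, n = 3). Its 3 values lay above all values of Cldn2, the next in order, at 1.54 ± 0.688 CPM per kilobase. Cldn1 (1.43), Mfrp (1.34), Krt18 (1.33) and Prr32 (1.28 CPM per kilobase) followed, and neighbours in this order had overlapping ranges, as had Krt8 (0.561) and Tmem72 (0.528 CPM per kilobase) at the low end. Tmem72 was above Krt8 in 2 of the 3 AllPrep libraries, so the order of those 2 is not set. Tmem72, first by counts, stands low per length since its annotated transcript has 17152 bases, against 864 for Calml4. Whether counts scale with transcript length in these libraries, which were amplified by T7 in vitro transcription, was not tested. The longest transcript may also not be the one expressed, so this order depends on the lengths used. In TRIzol, Cldn1 had 1.37 ± 1.10 CPM per kilobase, and each of the others was at or below 0.163 CPM per kilobase on average.

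Other keratins and claudins were tested across all genes with edgeR's quasi-likelihood test and Benjamini-Hochberg adjustment over 16325 genes, of which 3.8% were called at an adjusted p below 0.05, 2.52% higher and 1.28% lower in AllPrep. Scaled by library size alone in place of the edgeR default, the split of calls was 343 higher and 305 lower, against 412 higher and 209 lower. Of the 40 other keratin genes in the table, 12 had enough counts to test and 0 were called by edgeR (4 had an unadjusted p below 0.05, and DESeq2 called 3). The most abundant were Krt222, a keratin-like gene, with 48.7 ± 2.67 CPM in AllPrep and 57.3 ± 0.329 CPM in TRIzol (SD, n = 3 each; log2 fold change -0.20, edgeR adjusted p = 0.115), and Krt9, with 13.5 ± 2.97 CPM in AllPrep and 7.22 ± 2.72 CPM in TRIzol (log2 fold change 0.94, edgeR adjusted p = 0.0924; DESeq2 called it). The median log2 fold change of the 12 was 0.29, against -0.01 over all genes tested. Of the 40, 30 stayed below 1 CPM in every library, among them Krt7 and Krt19, keratins of simple and glandular epithelia, at or below 0.220 and 0.205 CPM. Keratins of layered epithelia were mixed, with Krt5 and Krt14 at or below 0.353 and 0.157 CPM, but Krt1 and Krt10 at up to 5.21 and 5.603 CPM. These 6 were singled out after their values had been seen. Of the 12 tested, 3 had every AllPrep library above every TRIzol library and 1 had every one below. Over all genes tested the shares were 13.4% and 20.6%. The 3 were Krt9, Krt20 and Krt77. Krt20 had 4.25, 4.41 and 4.46 CPM in AllPrep, against 2.99, 2.10 and 2.93 CPM in TRIzol. Krt77 had 9.32, 7.60 and 15.6 CPM in AllPrep, against 5.08, 3.17 and 5.76 CPM in TRIzol.

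Of the 16 other claudins, 8 were tested and 0 were called by edgeR (1 had an unadjusted p below 0.05, and DESeq2 called 0). Their median log2 fold change was -0.19, and all 8 values were below 0. Cldn11, the claudin of myelin, had 92.5 ± 21.0 CPM in AllPrep and 129 ± 24.6 CPM in TRIzol (SD, n = 3 each; edgeR adjusted p = 0.2). Cldn12 had 54.2 ± 5.21 CPM in AllPrep and 57.1 ± 5.80 CPM in TRIzol. Cldn5, the claudin of brain capillaries, had 22.1 ± 2.08 CPM in AllPrep and 23.6 ± 2.78 CPM in TRIzol (log2 fold change -0.06, edgeR adjusted p = 0.794).

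Genes of cell junctions, cell polarity, desmosomes and epithelial identity were read from lists as well. In a list of 25 genes of tight junctions and cell polarity, 23 were tested, and 1 rose and 1 fell by edgeR. Over all genes, 3.8% were called in either direction. The median log2 fold change of the 23 was 0.15, and DESeq2 called 4. Every AllPrep library was above every TRIzol library for 7 of the 23 and below for 1, beside 13.4% and 20.6% of all genes tested. Among the 7 was Tjp3, singled out after its values had been seen. It had 1.15 ± 0.705 CPM in AllPrep and 0.283 ± 0.240 CPM in TRIzol (SD, n = 3 each) and was not called. Magi3, a scaffold protein of cell junctions, rose to 86.6 ± 5.58 CPM in AllPrep, against 63.1 ± 7.65 CPM in TRIzol (SD, n = 3 each; log2 fold change 0.49, SE 0.10, edgeR adjusted p = 0.0421), but was not called with scaling by library size alone. Jam3, a junctional adhesion molecule, fell to 14.3 ± 1.29 CPM in AllPrep, against 21.6 ± 1.85 CPM in TRIzol (log2 fold change -0.56, SE 0.11, edgeR adjusted p = 0.0390). Tjp1, which encodes the plaque protein ZO-1, had 135 ± 1.48 CPM in AllPrep and 120 ± 5.54 CPM in TRIzol, and was not called (edgeR adjusted p = 0.109). Among 22 genes of desmosomes, the keratin anchors, and of epithelial identity, 16 were tested and edgeR called Cdh3 alone (DESeq2 called 3). Cdh3, which encodes P-cadherin, rose to 0.709 ± 0.219 CPM in AllPrep, against 0.103 ± 0.0559 CPM in TRIzol (SD, n = 3 each; log2 fold change 2.82, SE 0.50, edgeR adjusted p = 0.0337). The calls of Magi3, Jam3 and Cdh3 were lost whichever library was left out. Plec, whose protein plectin ties keratin filaments to junctions, had 225 ± 11.02 CPM in AllPrep and 270 ± 8.38 CPM in TRIzol (edgeR adjusted p = 0.115).

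Relatives and partners of Calml4 and Mfrp gave 1 call, beside 3.8% of all genes tested that edgeR called. Of 15 microvillus genes, 11 were tested and 0 were called by edgeR (2 had an unadjusted p below 0.05, and DESeq2 called 0). Ush1c and Myo7b, which belong with Calml4 to the tip-link complex of the intestine, had too few counts to be tested. Of 9 genes of the calmodulin family in the table, Caln1, which encodes a neuronal calmodulin-like protein, rose to 328 ± 17.6 CPM in AllPrep, against 210 ± 7.61 CPM in TRIzol (SD, n = 3 each; log2 fold change 0.68, SE 0.08, edgeR adjusted p = 0.0168). Its call held without TRIzol replicates 1 or 3 and was lost without each of the other 4 libraries. Of 7 genes related to Mfrp by a frizzled-like domain or by Wnt binding, 0 were called by edgeR (1 had an unadjusted p below 0.05, and DESeq2 called 0). Of 10 retinal pigment epithelium genes, 7 were tested and 0 were called by edgeR (1 had an unadjusted p below 0.05, and DESeq2 called 0), with Rlbp1, a retinoid carrier, at 16.5 ± 2.60 CPM in AllPrep and 13.4 ± 0.894 CPM in TRIzol.

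Most of the other choroid plexus genes listed moved with the 7 genes, but not all. Of 26 listed genes, all tested, 16 rose, 0 fell and 10 were not called (median log2 fold change 1.55). Over all genes tested, edgeR called 2.52% higher and 1.28% lower in AllPrep. Besides Ttr (log2 fold change 5.83, SE 0.32, edgeR adjusted p = 0.0024), Kcne2, a potassium channel subunit, rose to 4.32 ± 1.58 CPM in AllPrep, against 0.240 ± 0.0940 CPM in TRIzol (SD, n = 3 each; edgeR adjusted p = 0.0124). F5, coagulation factor V, rose to 11.97 ± 6.34 CPM in AllPrep, against 0.737 ± 0.0745 CPM in TRIzol. Clic6, an intracellular chloride channel protein, rose to 24.4 ± 8.49 CPM in AllPrep, against 2.06 ± 0.873 CPM in TRIzol. Enpp2, next to Ttr the most abundant of the list in AllPrep, and also expressed by other brain cells, had 541 ± 93.0 CPM in AllPrep and 338 ± 61.6 CPM in TRIzol and was not called (edgeR adjusted p = 0.0554). Otx2 had 4.8 ± 1.1 CPM in AllPrep and 5.0 ± 4.3 CPM in TRIzol and was not called. Slc4a2, at 37.6 ± 1.22 CPM in AllPrep and 37.2 ± 3.20 CPM in TRIzol, was not called either. The ranges of the 2 methods overlapped for both, and for Slc13a4 and Lmx1a. The list was put together with earlier results of these data known, so its direction is not independent evidence. Without AllPrep replicates 1, 2 and 3 in turn 3, 5 and 4 of the genes were called, and without TRIzol replicates 1, 2 and 3 there were 7, 1 and 10 calls; Ttr was called each time.

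**Figure D4:**
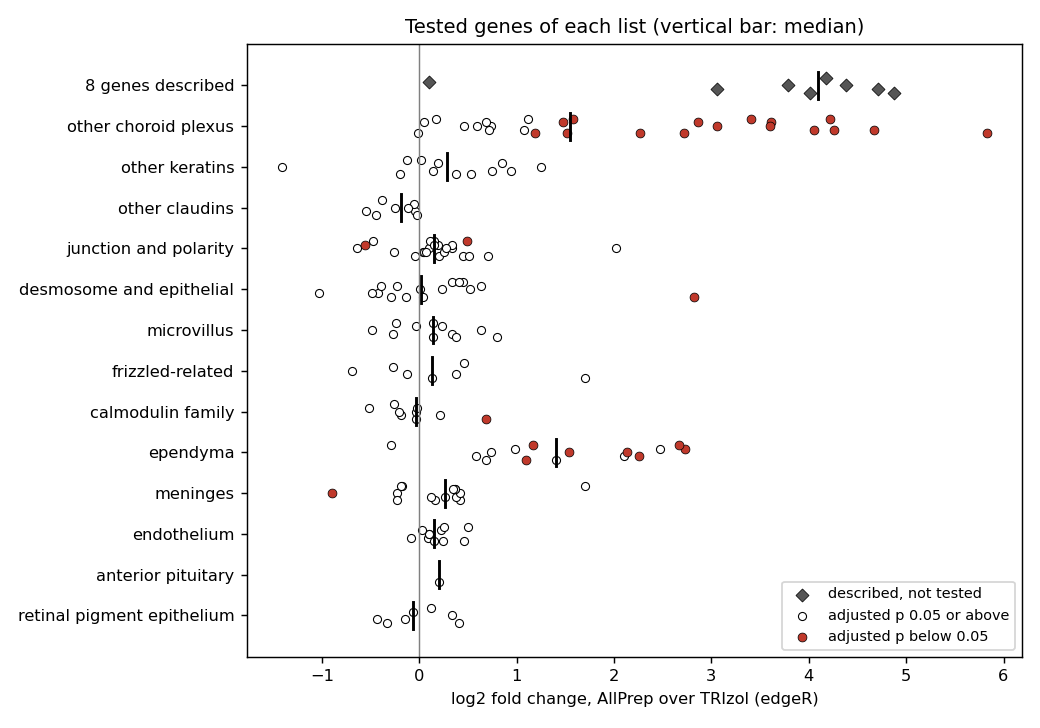
Log2 fold change of AllPrep over TRIzol from edgeR (horizontal axis) for the tested genes of each list (rows), with called genes filled and list medians as vertical bars. The 8 genes described have a median of 4.09 on this scale, next to 1.55 for other choroid plexus genes, 0.29 for other keratins and -0.19 for other claudins.

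Other cells in or near the ventricles were read from the same table. The calls below stand beside 2.52% of all genes tested called higher and 1.28% called lower in AllPrep. These lists, too, were put together with earlier results of these data known, so their directions are not independent evidence. Ependymal genes, which mark the ciliated lining of the ventricles, moved in the same direction as the choroid plexus genes: 7 of 15 rose, 0 fell and 8 were not called (median log2 fold change 1.40), and their summed level was 105, 82.9 and 113 CPM in AllPrep, against 71.8, 52.9 and 51.9 CPM in TRIzol. Hydin, a protein of the ciliary axoneme, rose to 5.19 ± 1.58 CPM in AllPrep, against 1.12 ± 0.369 CPM in TRIzol (SD, n = 3 each; edgeR adjusted p = 0.0250), while Foxj1, the regulator of motile cilia, had 10.3 ± 1.35 CPM in AllPrep and 6.60 ± 1.79 CPM in TRIzol and was not called (edgeR adjusted p = 0.0990). The 7 ependymal calls fell to 0 without AllPrep replicate 1, 2 or 3 or TRIzol replicate 2 or 3. Of 15 meningeal genes, 0 rose and Dpp4, a membrane peptidase, fell to 3.48 ± 0.147 CPM in AllPrep, against 6.65 ± 0.504 CPM in TRIzol (edgeR adjusted p = 0.0261), a call lost whichever library was left out. The summed meningeal level ran from 91.5 to 170 CPM in AllPrep and from 73.6 to 136 CPM in TRIzol, lowest in TRIzol replicate 1. Of 11 endothelial genes 0 were called by edgeR (2 had an unadjusted p below 0.05, and DESeq2 called 1). Anterior pituitary, another tissue with keratins 8 and 18, had 9 of its 10 genes in the table under 1 CPM in every library, and the list summed to 1.79 to 2.21 CPM in AllPrep and 1.37 to 2.36 CPM in TRIzol, of which Tshb gave 1.28 to 1.89 CPM in AllPrep and 1.24 to 1.66 CPM in TRIzol. The part of ependymal and meningeal tissue in the levels of the 8 genes was not tested.

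The genes next to the 8 on the chromosome were read in the same way, leaving aside the keratins, which adjoin each other. Eif4b, on the far side of Krt18, had 144 ± 4.37 CPM in AllPrep and 137 ± 16.3 CPM in TRIzol (SD, n = 3 each). Krt78, on the far side of Krt8, had 0.0390 ± 0.0469 CPM in AllPrep and 0.0346 ± 0.0599 CPM in TRIzol. Around Cldn2, Tbc1d8b had 10.8 ± 2.03 CPM in AllPrep and 10.1 ± 2.69 CPM in TRIzol, and Morc4 had 4.98 ± 1.04 CPM in AllPrep and 4.42 ± 0.303 CPM in TRIzol. Cln6, beside Calml4, had 8.99 ± 0.557 CPM in AllPrep and 8.20 ± 1.17 CPM in TRIzol, and Usp2, beside Mfrp, had 56.4 ± 4.58 CPM in AllPrep and 48.6 ± 6.56 CPM in TRIzol. Beside Cldn1, P3h2 had 2.44 ± 0.127 CPM in AllPrep and 2.44 ± 0.450 CPM in TRIzol, and beside Tmem72, Cxcl12 had 67.0 ± 4.78 CPM in AllPrep and 60.5 ± 6.82 CPM in TRIzol. Rassf4, on the other side of Tmem72, had 17.1 ± 6.83 CPM in AllPrep and 23.4 ± 8.53 CPM in TRIzol. Dcaf12l1, beside Prr32, had 78.9 ± 9.26 CPM in AllPrep and 67.2 ± 10.5 CPM in TRIzol. The ranges of the 2 methods overlapped for 15 of the 15 neighbours measured. Over all genes tested, 13.4% had every AllPrep library above every TRIzol library and 20.6% every one below, so overlap is the common case. Krt78, Cldn16, Gm10653 and Gm14653 were at or below 0.104 CPM in every library, so their overlap says little.

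Outside the 8 genes, those reported whose log2(CPM + 0.5) followed the 8-gene mean most closely over the 6 libraries, among 282 tested genes with a range of at least 2 on that scale, were F5 (Pearson r = 0.996), Abca4, a lipid transporter known from photoreceptors (0.996), Slc4a5, a bicarbonate transporter (0.996), and Lbp, which binds bacterial lipopolysaccharide (0.988). Abca4 had 7.69, 5.86 and 10.4 CPM in AllPrep, against 2.14, 2.65 and 2.53 CPM in TRIzol. These r values are a measure of likeness over libraries that fall into 2 groups, and no test goes with them.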

How the data were processed

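RNA libraries of mouse brain were made, per the labels' protocols, by T7 in vitro transcription amplification and sequenced as paired reads on an Illumina NovaSeq instrument. The authors deposited raw counts per gene. Per the submitters' processing notes, the processing used limma 3.60.6, STAR 2.7.9a, FastQC 0.11.9, featureCounts and cutadapt, and the build was GRCm39. Whether pairs or reads were counted, and on which strand, is not given in the sources used here. Of 22692 rows, 108 repeated an Ensembl ID with identical counts and were removed.

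Levels are CPM, counts scaled to a library total of 1000000. For the lists, all genes were fitted in R 4.3.3 with edgeR 4.0.16 (filter: filterByExpr; TMM normalization, quasi-likelihood F-test, two-sided, Benjamini-Hochberg adjusted p below 0.05) and with DESeq2 1.42.0 as an alternative; the edgeR step was tested on simulated data. Standard errors are the absolute log2 fold change over the root of the F statistic. Libraries of the same method differed beyond counting noise, with a chi-square of 14.3 or more for each degree of freedom. Members and lists were chosen with earlier results of these data known. Named list genes are those called, up to 4 by p, and the 2 most abundant. Some genes that this rule names are not reported here. Transcript lengths came from GENCODE vM21 and neighbours and promoters from RefSeq, both on GRCm38, so no gene coordinates are given apart from the promoter windows.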

Additional observations from a re-analysis of the deposited data

How the results depend on the processing

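The median log2 ratio of the 8 genes was 4.10 with TMM or DESeq2 scaling and 3.64 to 4.68 with single libraries left out. It was 2.07 as the difference between group means of log2(CPM + 0.5). The replicate block gives the same 2.07 by construction, since it averages same-numbered differences on that scale. Calls depended on the fit. Of all genes, 621 were called, against 2001 with DESeq2, 236 with the replicate block and 2 to 205 with a library left out. The block is no check of pairing, because same-numbered libraries deviated together only weakly (r = -0.05, 0.01 and 0.16) and the labels do not say what a number marks. With it 0 junction, 0 desmosome and 0 meningeal genes were called and 1 keratin. DESeq2 called 3 keratins, 4 junction, 3 desmosome, 13 ependymal and 1 endothelial genes. Library size alone left 1 junction call, and a filter of 1 CPM in 3 libraries left 0 desmosome calls, since Cdh3 lies under it. With a library left out, calls ran from 1 to 10 in the choroid plexus list, 0 to 7 for ependyma, 0 to 1 for the calmodulin family and for endothelium, and were 0 to 0 for the other lists, so that the 2 junction calls, 1 desmosome call and 1 meningeal call were lost each time. Halved counts left each list count as it was. With 0 to 24 counts in a TRIzol library for the 7 genes, folds above about 10 are loosely set.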

Other observations

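Cldn1 was the exception among the 8 genes, and its high value in TRIzol replicate 3 was shared by other genes. These genes were picked after their values were seen, so they are a description. Desmoplakin, Dsp, the main protein of desmosomes, had 1.75, 4.59 and 4.08 CPM in AllPrep replicates 1 to 3, against 0.220, 0.571 and 12.2 CPM in TRIzol replicates 1 to 3. Periplakin, Ppl, had 2.46, 1.76 and 3.38 CPM in AllPrep, against 3.24, 0.623 and 7.001 CPM in TRIzol, and plakophilin 2, Pkp2, had 8.82, 5.91 and 10.3 CPM in AllPrep, against 3.76, 4.13 and 12.3 CPM in TRIzol. All 3 were highest in TRIzol replicate 3, as Cldn1 was at 8.58 CPM, but their list did not lean that way: 4 of its 22 genes were highest in TRIzol replicate 3 and 6 in TRIzol replicate 1. Pkp1, plakophilin 1, was lowest in TRIzol replicate 3, at 0.0889 CPM. Ttr was at 12.8 CPM in that library, and the summed meningeal list was at 135 CPM, against 136 CPM in TRIzol replicate 2.

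Among 1969 tested genes with a range of at least 1 on the log2(CPM + 0.5) scale, the one most like Cldn1 over the 6 libraries was Homer3, a postsynaptic scaffold gene (Pearson r = 0.989), with 5.78, 4.95 and 7.77 CPM in AllPrep, against 4.07, 4.52 and 9.42 CPM in TRIzol. Crim1 (0.971), Tnxb (0.968) and Lrrtm1 (0.965) came next. Like Cldn1, each had its higher values in replicate 3 of both methods. Tanc1 (0.954) had 58.5, 55.8 and 81.8 CPM in AllPrep, against 33.4, 32.6 and 107 CPM in TRIzol.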
